A study of Homo sapiens with 24 samples.

Results

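The GIMAP genes encode a family of small GTP-binding proteins made mainly by lymphocytes. Their 7 members in these data, GIMAP1, GIMAP2, GIMAP4, GIMAP5, GIMAP6, GIMAP7 and GIMAP8, were taken by symbol from count tables of 25559 genes, and all 7 were listed in them. RNA-seq was done on 3 human malignant T-cell lines, HH (cutaneous T-cell lymphoma), PF382 (T-cell acute lymphoblastic leukemia) and TLOm1 (adult T-cell leukemia). Cells in logarithmic growth were left untreated or exposed to azacitidine or decitabine for 96 h, with drug added every 24 h. HH received azacitidine at 50, 125 and 250 nM, and the other two lines received it at 125, 250 and 500 nM. Decitabine was used at 5, 12.5 and 25 nM throughout. Each dose had 1 library. The titles divide the 24 libraries into an azacitidine set and a decitabine set of 12 each, and each set had its own untreated library per line, so each line had 2 untreated libraries. Every group is therefore 1 established cell line in culture, with no stroma or normal lymphocytes to compare it with, and 2 titles spell PF382 as PF82.

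GIMAP proteins (GTPases of immunity-associated proteins) share a GTP-binding domain and many sit on membranes of the endoplasmic reticulum, lysosomes, Golgi or lipid droplets. They are best known for keeping resting T and B cells alive: loss of GIMAP5 or GIMAP1 in rodents leaves few mature lymphocytes, GIMAP6 binds a protein of the autophagy machinery, and members of the family have been tied to BCL2-family proteins. The genes lie side by side in 1 cluster on the long arm of chromosome 7. Azacitidine and decitabine are cytidine analogs that enter nucleic acid, trap DNA methyltransferases on DNA and so lower DNA methylation in dividing cells. Methylation itself was not measured in these data.

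In the RefSeq tables (GRCh38.p14, a later build than the GRCh37.p2 named in the processing notes), the order along the chromosome is GIMAP8, GIMAP7, GIMAP4, GIMAP6, GIMAP2, GIMAP1 and GIMAP5. The promoters of the 3 genes with the largest differences in treated PF382 cells, GIMAP6, GIMAP4 and GIMAP8, are given first and those of 2 members whose levels differed little or in no shared direction, GIMAP2 and GIMAP7, after them. Each runs 5′ to 3′ on the gene's own strand over 300 bases, from 250 before to 50 after the RefSeq start, with each CG dinucleotide, the site that DNA methyltransferases act on, in capitals.
GIMAP6, chr7:150632336-150632635, minus strand: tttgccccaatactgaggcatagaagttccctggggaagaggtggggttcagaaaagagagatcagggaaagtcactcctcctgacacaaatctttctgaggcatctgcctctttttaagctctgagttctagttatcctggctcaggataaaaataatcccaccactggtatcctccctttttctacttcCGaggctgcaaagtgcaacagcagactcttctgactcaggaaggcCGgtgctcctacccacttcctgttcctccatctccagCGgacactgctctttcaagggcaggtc
GIMAP4, chr7:150567140-150567439, plus strand: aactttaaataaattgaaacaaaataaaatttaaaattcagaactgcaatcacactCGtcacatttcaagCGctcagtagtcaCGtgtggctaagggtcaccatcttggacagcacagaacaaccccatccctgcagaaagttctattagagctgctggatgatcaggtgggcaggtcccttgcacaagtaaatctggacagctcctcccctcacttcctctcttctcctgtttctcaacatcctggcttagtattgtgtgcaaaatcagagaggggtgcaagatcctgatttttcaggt
GIMAP8, chr7:150450380-150450679, plus strand: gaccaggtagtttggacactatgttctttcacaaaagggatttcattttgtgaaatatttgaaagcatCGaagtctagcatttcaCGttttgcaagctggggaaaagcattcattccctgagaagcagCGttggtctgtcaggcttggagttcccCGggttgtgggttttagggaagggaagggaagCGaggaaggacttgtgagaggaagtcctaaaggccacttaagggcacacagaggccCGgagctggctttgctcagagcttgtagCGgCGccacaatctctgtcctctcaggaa
GIMAP2, chr7:150685456-150685755, plus strand: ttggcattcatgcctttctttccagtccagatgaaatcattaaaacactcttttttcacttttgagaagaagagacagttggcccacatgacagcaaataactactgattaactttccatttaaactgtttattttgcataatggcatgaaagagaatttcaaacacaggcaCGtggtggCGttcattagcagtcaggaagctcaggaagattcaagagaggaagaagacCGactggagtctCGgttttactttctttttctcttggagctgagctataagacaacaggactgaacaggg
GIMAP7, chr7:150514622-150514921, plus strand: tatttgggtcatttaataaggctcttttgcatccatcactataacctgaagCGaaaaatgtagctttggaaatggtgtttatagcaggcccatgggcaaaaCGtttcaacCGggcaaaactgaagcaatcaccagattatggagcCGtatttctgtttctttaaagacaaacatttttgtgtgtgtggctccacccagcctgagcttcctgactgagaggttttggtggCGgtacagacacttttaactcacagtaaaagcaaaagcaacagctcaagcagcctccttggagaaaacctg
All 7 promoters held fewer CG dinucleotides than the median RefSeq promoter. They held 3 (GIMAP4 and GIMAP6), 4 (GIMAP1, GIMAP2 and GIMAP5), 5 (GIMAP7) and 8 (GIMAP8) CG dinucleotides, against a median of 14 and quartiles of 4 and 28 over 35116 RefSeq promoters of the same length. The 7-letter word AGGAAGT, an ETS-type core chosen after the sequences had been read, was found once, counting both strands, in the promoters of GIMAP4, GIMAP5, GIMAP6 and GIMAP8 and not in those of GIMAP1, GIMAP2 and GIMAP7. It occurs in 8.24% of all promoters. A RUNX-type core, TGTGGT, held by 13.1% of promoters, was in none of the 7 windows on either strand. Neither was a GATA-type core held by 10.3% of promoters, AGATAA. Such matches describe the letters in these windows only.

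Libraries held 13892514 to 32496676 counted reads, so that a count of 0 allowed up to 3 counts, or 0.0923 to 0.216 CPM, in a library. CPM are counts scaled to a library total of 1000000. T-cell markers summed to between 1286 and 3092 CPM in every library, but the defining markers differed by line. In PF382, CD3D was at 318 to 447 CPM and LCK, the kinase that starts T-cell receptor signalling, at 510 to 901 CPM. HH had CD3D at 24.8 to 43.0 CPM and LCK at no more than 0.646 CPM. TLOm1 had almost no CD3D, CD3G, CD5, CD7 or LCK (medians of 0.0399, 0.0212, 0.455, 0.357 and 0.0636 CPM), with CD4 at 761 to 1016 CPM. CD8A, CD8B and CD28 were also low there (medians of at most 0.430 CPM). CD2 (221 to 270 CPM), CD247 (111 to 141 CPM) and ZAP70 (55.9 to 134.5 CPM) were present in TLOm1. So were LAT (31.6 to 86.8 CPM) and CD3E (33.55 to 39.9 CPM). HH had CD4 at 518 to 627, CD5 at 281 to 613 and CD2 at 171 to 285 CPM. CD7, CD8A and CD8B reached at most 2.04 CPM in HH. In PF382, CD2 was at 4.15 to 5.93 CPM. The untreated TLOm1 library of the azacitidine set stood apart from the other TLOm1 libraries in 3 T-cell genes that were high in PF382: TCF7 was at 3.45 CPM there and at most 0.410 CPM in the others, LCK at 1.34 against at most 0.142 CPM, and CD3D at 0.731 against at most 0.123 CPM. The part of this in the GIMAP values was not tested.

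**Figure D1:**
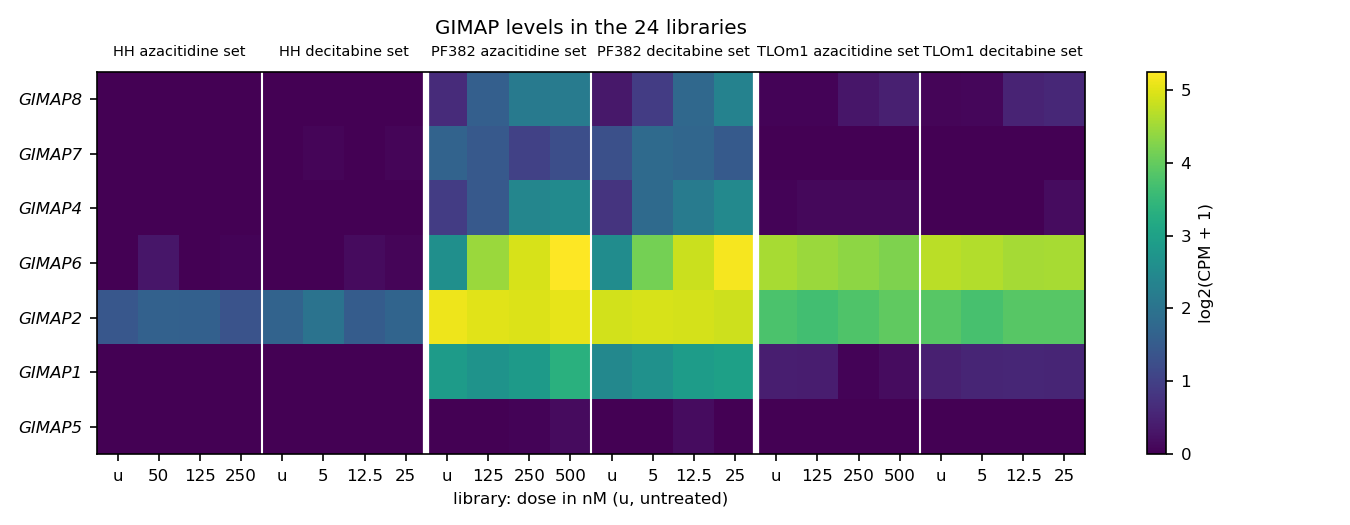
Level of each GIMAP gene (rows, in chromosome order) in each of the 24 libraries (columns, by line, library set and dose in nM), as log2(CPM + 1). PF382 had counts for every member but GIMAP5 in all 8 libraries, TLOm1 mainly for GIMAP6 and GIMAP2, and HH for GIMAP2.

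In untreated cells the family separated the 3 lines. PF382 expressed 6 members, TLOm1 expressed GIMAP6 and GIMAP2 with traces of GIMAP1, and HH expressed GIMAP2 alone at a low level. Per length, using GENCODE exon lengths because the annotation behind the counts is not given in the sources used here, GIMAP2 was the highest member in untreated PF382 (19.8 and 23.1 RPKM, CPM per kilobase of exon) and GIMAP6 was at 1.25 and 1.32 RPKM. In untreated TLOm1, GIMAP2 (8.64 and 9.55 RPKM) lay above GIMAP6 (5.78 and 6.43 RPKM) with no overlap between the 2 libraries of each.

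GIMAP2, which binds GTP on lipid droplets, was the 1 member detected in every library. Its untreated level was 31.1 ± 3.38 CPM in PF382, 13.2 ± 0.934 CPM in TLOm1 and 1.94 ± 0.354 CPM in HH (mean ± SD, n = 2 each). Every neighbour in this order differed beyond its spread: by edgeR's quasi-likelihood test over all genes, PF382 exceeded TLOm1 by 1.08 (log2, SE 0.20, adjusted p = 0.000570) and TLOm1 exceeded HH by 2.74 (log2, SE 0.24, adjusted p = 2.69e-06).

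GIMAP6, the member that binds an autophagy protein, had another order. It was highest in TLOm1 (23.9 ± 1.80 CPM, n = 2), lower in PF382 (5.02 ± 0.186 CPM, n = 2) and at 0 counts in both untreated HH libraries. The step from TLOm1 down to PF382 was -2.41 on the log2 scale (SE 0.23, adjusted p = 8.14e-06 by edgeR). Against the floor of 3 counts per library, the level in TLOm1 was at least 176-fold higher and that in PF382 at least 36.8-fold higher than in HH.

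GIMAP1, GIMAP4, GIMAP7 and GIMAP8 were highest in untreated PF382. GIMAP1, which mature lymphocytes need to persist, was at 5.41 ± 1.30 CPM (n = 2) in PF382, at 0.368 ± 0.00317 CPM (9 and 8 counts) in TLOm1 and at 0 in HH, and the step between PF382 and TLOm1 was 3.69 (log2, SE 0.45, adjusted p = 4.16e-05). GIMAP7, a GTPase that acts as a dimer, was at 1.81 ± 0.529 CPM in PF382 and at 0 in both other lines, at least 13.3-fold above HH and 13.9-fold above TLOm1. GIMAP4, linked to lymphocyte death and cytokine release, was at 0.817 ± 0.141 CPM in PF382, with 1 count over both untreated TLOm1 libraries, a ratio of 38.7 (95% interval 6.46 to 1574, counting error only). GIMAP8, the largest protein of the family with several GTP-binding domains, was at 0.414 ± 0.217 CPM in PF382 (13 and 4 counts), with 1 count in each untreated TLOm1 library and none in HH. Its ratio of PF382 to TLOm1 was 10.3 (2.44 to 91.6), and it was at least 3.04-fold above HH.

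Of the 5 members that passed the filter on low counts in the 6 untreated libraries (GIMAP5 and GIMAP8 did not), all 5 were called higher in PF382 than in HH, where 66.4% of all genes tested were called in either direction. Between TLOm1 and HH 3 of 5 were called (GIMAP1, GIMAP2 and GIMAP6, all higher in TLOm1), against 55.7% of all genes. Between PF382 and TLOm1 all 5 were called, 4 higher in PF382 and GIMAP6 lower, against 67.2%; by DESeq2 the GIMAP4 call was lost (adjusted p = 0.0907). GIMAP1, GIMAP4 and GIMAP7 had at most 9 counts in an untreated TLOm1 library and 0 in untreated HH. They passed the filter through PF382 alone, so their direction in the PF382 comparisons was largely fixed by it. The shares of all genes are no like comparison for them. GIMAP7, at 0 counts in untreated TLOm1 and HH, could not be called between these lines. Each line had 2 untreated libraries, which the labels do not describe as separate cultures, so the spread behind these tests may be technical. None of the 5 passed edgeR's adjusted threshold for a difference between the untreated libraries of the 2 library sets (none at an unadjusted p under 0.05, none by DESeq2 or limma voom). Of all genes 10.6% passed, so that none of 5 is near this share and does not show that the sets were alike in the members.

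Of the members in PF382, GIMAP6 rose with both drugs. It was higher at each step up in dose, and at the middle and high doses it lay above both untreated TLOm1 libraries. It was at 5.15 CPM in the untreated library of the azacitidine set and at 21.0, 29.4 and 37.0 CPM at 125, 250 and 500 nM azacitidine. It was at 4.89 CPM in the untreated library of the decitabine set and at 16.9, 27.5 and 35.0 CPM at 5, 12.5 and 25 nM decitabine. All 6 treated libraries lay above both untreated libraries with no overlap. The highest doses held 7.18 times and 7.16 times the level of their own untreated library. Summed over doses, 2157 counts after azacitidine against 118 untreated gave a ratio per library size of 5.65 (95% counting interval 4.69 to 6.86), and 1191 against 75 after decitabine a ratio of 5.27 (4.17 to 6.75).

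In a fit of all 24 libraries, in which the doses of a line stood in for replicates, GIMAP6 was the 1 member of 6 tested called in PF382 with each drug. It was 2.46 higher with azacitidine (log2, SE 0.43, adjusted p = 0.0113 by edgeR) and 2.38 higher with decitabine (SE 0.44, adjusted p = 0.0354). Of all 17841 genes tested, 0.359% were called higher in PF382 with azacitidine and 0.247% with decitabine, and GIMAP6 ranked 42 and 27 by p. From the 8 PF382 libraries alone, a fit added after the data had been seen, the sizes were 2.44 and 2.35 and neither passed (adjusted p = 0.142 and 0.269, where 0.196% and 0.0% of genes were called). The decitabine call was also lost by limma voom (adjusted p = 0.146) and when any 1 of 9 libraries was left out (0.0506 to 0.0949). Each effect rests on 1 untreated library, and in bulk RNA fewer cells with a transcript and less of it per cell cannot be told apart.

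GIMAP8 and GIMAP4 were higher in the same libraries as GIMAP6, from few counts, and did not pass the test. GIMAP8 went from 0.567 CPM (13 counts) to 2.0, 3.4 and 3.55 CPM with rising azacitidine. With rising decitabine it went from 0.261 CPM (4 counts) to 0.918, 2.41 and 4.03 CPM. Each step up in dose thus gave a higher value with either drug. GIMAP4 went from 0.917 CPM (21 counts) to 1.76, 4.33 and 4.67 CPM with azacitidine, and from 0.717 CPM (11 counts) to 2.52, 3.55 and 4.54 CPM with decitabine. Again no treated library overlapped an untreated one. The ratios of summed counts were 5.23 (95% counting interval 2.99 to 9.98) and 8.96 (3.4 to 33.5) for GIMAP8 with azacitidine and decitabine, and 3.88 (2.49 to 6.38) and 4.83 (2.63 to 9.86) for GIMAP4. In the edgeR fit GIMAP8 differed by 2.34 (log2, SE 1.02, adjusted p = 0.379) and 3.13 (SE 1.19, adjusted p = 0.267), and GIMAP4 by 1.92 (SE 0.78, adjusted p = 0.337) and 2.24 (SE 0.84, adjusted p = 0.260). All 4 had unadjusted p-values of 0.0195 to 0.0389.

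**Figure D2:**
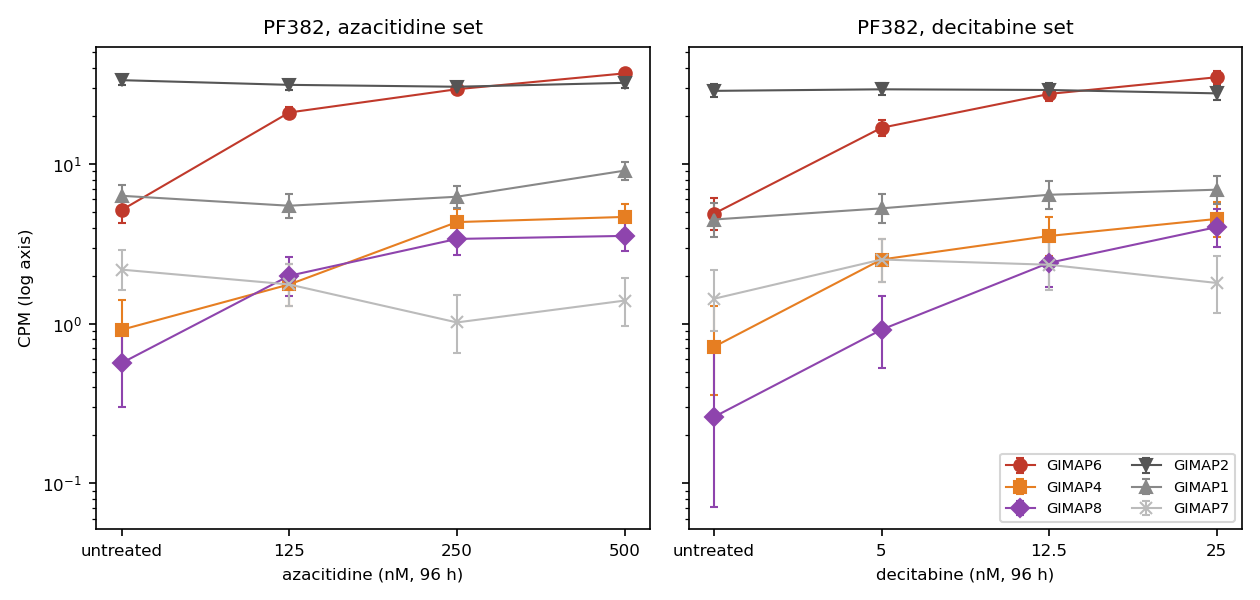
CPM (log axis) of 6 GIMAP genes in the 4 PF382 libraries of each set, by dose in nM, with bars for the 95% Poisson counting interval of the single library. GIMAP6, GIMAP4 and GIMAP8 (colours) lay above their untreated value at every dose, and GIMAP2, GIMAP1 and GIMAP7 (greys) did not move together; heights of different genes are not per length.

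None of the other members of PF382 was called. GIMAP2 stayed between 30.5 and 32.3 CPM with azacitidine against 33.5 CPM untreated, and between 27.7 and 29.4 CPM with decitabine against 28.7 CPM. Its ratios of summed counts were 0.936 (0.863 to 1.02) and 1.0 (0.899 to 1.12), bounds that cover counting error only. In the edgeR fit GIMAP2 differed by -0.13 (log2, SE 0.18, adjusted p = 0.831) and -0.04 (SE 0.18, adjusted p = 0.962). GIMAP1 was at 6.33 CPM untreated and 5.48, 6.24 and 9.09 CPM with rising azacitidine. With decitabine it was at 4.50 CPM untreated and 5.28, 6.42 and 6.91 CPM, above untreated in 3 of 3 libraries and higher at each step up in dose. Its ratios of summed counts were 1.10 (95% counting interval 0.911 to 1.33) and 1.37 (1.05 to 1.80). The second interval lay above 1, for counting error only. Neither effect of GIMAP1 passed (adjusted p = 0.985 and 0.717 by edgeR). GIMAP7 differed in sign between the 2 drugs. It was lower than its untreated 2.18 CPM in 3 of 3 azacitidine libraries (1.76, 1.02 and 1.40 CPM) and higher than its untreated 1.43 CPM in 3 of 3 decitabine libraries (2.52, 2.34 and 1.80 CPM). The 2 untreated values themselves differed and both lay within the range of the treated values. Neither effect passed (-0.68 with SE 0.55 and 0.60 with SE 0.60, adjusted p = 0.672 and 0.684 by edgeR). The GIMAP7 ratios of summed counts were 0.643 (95% counting interval 0.454 to 0.9195) and 1.57 (0.983 to 2.61). The first interval lay below 1, for counting error only. The share of members called with azacitidine or decitabine, 1 of 6, was thus that of GIMAP6 alone, and 3 of 6 had an unadjusted p under 0.05 with each drug, where 12.1% and 14.1% of all genes did. The 6 log2 differences fell apart, with GIMAP1, GIMAP2 and GIMAP7 between -0.68 and 0.09 with azacitidine and between -0.04 and 0.60 with decitabine. Their medians of 1.0 and 1.42, against 0.03 and 0.05 over all genes, lie in the gap between these members and GIMAP4, GIMAP6 and GIMAP8 and describe no member.

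Within the 8 PF382 libraries the correlation of log2(CPM + 1) was 0.955 between GIMAP4 and GIMAP6, 0.949 between GIMAP6 and GIMAP8 and 0.928 between GIMAP4 and GIMAP8 (Pearson's r as a description). GIMAP1 followed these 3 less closely, at 0.698 with GIMAP4, 0.633 with GIMAP6 and 0.720 with GIMAP8, and was at 0.353 with GIMAP2 and -0.165 with GIMAP7. The correlation was between -0.342 and -0.0733 for GIMAP7 with the 4 members other than GIMAP1, and between -0.231 and -0.124 for GIMAP2 with GIMAP4, GIMAP6 and GIMAP8. These points share libraries, depth and the step from untreated to treated.

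A slope on log2 dose within the treated libraries does not use the untreated ones. With 1 slope common to the 3 lines, no member passed for azacitidine (0 of 6 by edgeR, 2 at an unadjusted p under 0.05, 0 by DESeq2 and by limma voom), where 14.2% of genes were called. For decitabine GIMAP8 alone was called, at 0.91 per doubling of dose (log2, SE 0.22, adjusted p = 0.0498), where 3.59% of genes were. That call stood at the threshold and was lost by DESeq2 (adjusted p = 0.0964) and when any 1 of the 9 treated libraries was left out (0.0637 to 0.261). With a separate slope for each line, added after the data had been seen, GIMAP6 rose in PF382 by 0.39 per doubling of azacitidine (SE 0.08, adjusted p = 0.00156) and by 0.42 per doubling of decitabine (SE 0.08, adjusted p = 0.000329). GIMAP4 rose by 0.64 with azacitidine (SE 0.19, adjusted p = 0.0357) and GIMAP8 by 0.87 with decitabine (SE 0.26, adjusted p = 0.0175). These are 2 of 6 members with each drug, where 7.59% of all genes were called rising with azacitidine and 9.8% with decitabine. GIMAP1 had a PF382 slope of 0.35 with azacitidine (SE 0.14, unadjusted p = 0.0213) that did not pass (adjusted p = 0.113 by edgeR). In TLOm1 no member's slope passed. GIMAP8 there had slopes of 1.20 with azacitidine (SE 0.51, unadjusted p = 0.0298, adjusted p = 0.0911 by edgeR) and 0.97 with decitabine (SE 0.41, unadjusted p = 0.0235, adjusted p = 0.376), and GIMAP4, with 0 to 3 counts, had an unadjusted p of 0.0188 with decitabine (adjusted p = 0.338). At an unadjusted p under 0.05 these are 1 and 2 of 6 members, where 37.3% and 9.32% of all genes were. In HH 1 of 6 had such a p with azacitidine, GIMAP6 with at most 4 counts in a library (adjusted p = 0.0970), where 29.6% of genes did, and none with decitabine, where 15.3% did. GIMAP1, GIMAP4 and GIMAP8 had 0 counts in every HH library, and GIMAP7 in every TLOm1 library and the azacitidine-treated HH libraries. These members could not be called there, so the counts in HH and TLOm1 are no like comparison with the shares of all genes.

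TLOm1, which had the highest untreated GIMAP6, did not show the rise. GIMAP6 was at 22.6 CPM untreated and at 21.0, 19.4 and 17.7 CPM with rising azacitidine. It was at 25.2 CPM untreated and at 24.1, 22.3 and 22.4 CPM with rising decitabine. All 6 treated values were below their own untreated library, by -0.21 (log2, SE 0.35, adjusted p = 0.788) and -0.13 (SE 0.35, adjusted p = 0.954), neither larger than the spread. The ratios of summed counts were 0.8565 (95% counting interval 0.776 to 0.947) and 0.912 (0.829 to 1.005). The first interval lay below 1, for counting error only. GIMAP2 in TLOm1 was at 12.5 CPM untreated and at 11.6, 12.9 and 14.6 CPM with azacitidine, and at 13.8 CPM untreated and at 12.1, 13.7 and 13.8 CPM with decitabine. These values overlapped.

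GIMAP8 in TLOm1 was near the floor, with more counts at the middle and high doses. It had 1, 1, 6 and 9 counts from untreated to 500 nM azacitidine, and 1, 2, 13 and 12 counts from untreated to 25 nM decitabine. With 1 untreated count each, the ratios were 5.45 (95% counting interval 0.847 to 228) and 7.16 (1.18 to 293), and the edgeR differences did not pass (adjusted p = 0.476 and 0.692). GIMAP4 had 0 to 3 counts in every TLOm1 library and GIMAP7 had none. GIMAP1 had 9 untreated and 8, 1 and 3 treated counts in the azacitidine set, and 8 untreated and 13, 14 and 11 treated counts in the decitabine set, where neither difference passed (adjusted p = 0.410 and 0.932).

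HH stayed without the family except for GIMAP2. GIMAP2 was at 1.69 CPM untreated and 2.10, 2.03 and 1.53 CPM with azacitidine, and at 2.19 CPM untreated and 3.02, 1.90 and 2.24 CPM with decitabine, with overlapping values (adjusted p = 0.889 and 0.999). GIMAP1, GIMAP4, GIMAP5 and GIMAP8 had 0 counts in all 8 HH libraries. GIMAP7 had 1 count at 5 nM and 1 at 25 nM decitabine. GIMAP6 had 4 counts at 50 nM and 1 at 250 nM azacitidine, and 2 at 12.5 nM and 1 at 25 nM decitabine. At these depths a count of 0 in HH allowed a level of up to 0.0923 to 0.186 CPM, by library. Against untreated cells, no member was called in HH or TLOm1 with either drug by edgeR, DESeq2 or limma voom, and by edgeR none had an unadjusted p under 0.05. Of all genes, 0.0% were called in HH with azacitidine or decitabine, 0.998% in TLOm1 with azacitidine and 0.0% in TLOm1 with decitabine. Members with 0 counts in all libraries of a line could not be called there.

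**Figure D3:**
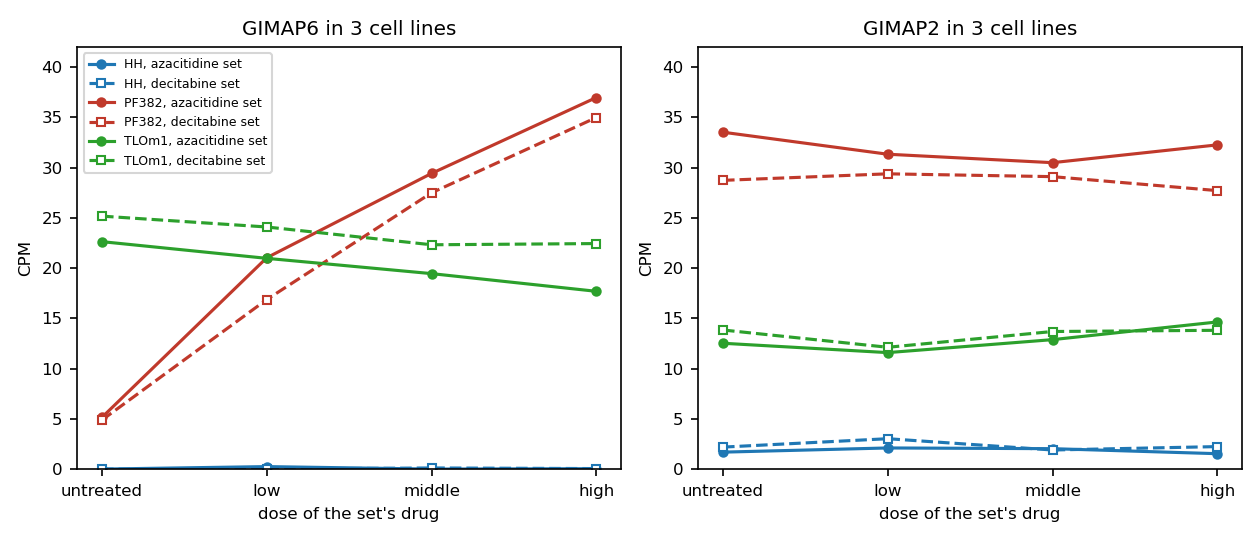
CPM of GIMAP6 (left) and GIMAP2 (right) in the 3 lines, from untreated through the low, middle and high dose of the drug of each library set (the doses differ by drug and, for azacitidine, between HH and the other lines). GIMAP6 rose from 5.15 to 37.0 CPM and from 4.89 to 35.0 CPM in PF382 and not in TLOm1 or HH, and GIMAP2 kept its order of PF382, TLOm1 and HH throughout.

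Whether the effect of a drug differs between the lines was tested directly. For GIMAP6 the test that the 3 line effects are equal gave an unadjusted p of 0.000401 for azacitidine and 0.000966 for decitabine, but neither passed after adjustment (edgeR, adjusted p = 0.0992 and 0.331), where 0.146% and 0.00561% of genes were called. DESeq2 called GIMAP6 with both drugs and limma voom with neither. No other member had an unadjusted p under 0.05 in this test. With the lines pooled, no member passed for either drug, where 1.17% of genes were called with azacitidine and 0.0% with decitabine. Over the 3 lines GIMAP8 differed by 2.31 (log2, SE 0.66, adjusted p = 0.117 by edgeR) and 2.99 (SE 0.94, adjusted p = 0.204), GIMAP4 by 1.78 (SE 0.56, adjusted p = 0.139) and 2.25 (SE 0.82, adjusted p = 0.243), and GIMAP6 by 0.83 (SE 0.50, adjusted p = 0.367) and 0.80 (SE 0.45, adjusted p = 0.409). The values for GIMAP8 and GIMAP4 come from PF382 and few counts of TLOm1, because HH had none. The 2 drugs were given at different concentrations and no test was made between them.

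Genes on either side of the GIMAP cluster did not share the rise in PF382. Of 13 neighbours, 10 passed the filter and none of these was called there against untreated cells. Of all genes, 0.83% and 0.258% were called there with azacitidine and decitabine, so that none of 10 is near these shares. At an unadjusted p under 0.05 by edgeR there were 2 of 10 with each drug, all 4 values lower, against 12.1% and 14.1% of all genes. No neighbour rose by its PF382 slope, where 12.1% and 15.4% of all genes were called in either direction. KCNH2 fell by 0.28 (adjusted p = 0.0221 by edgeR) and RARRES2 by 0.81 (0.0367) per doubling of azacitidine, and REPIN1 fell by 0.15 (0.0474) per doubling of decitabine. The differences of the neighbours ran from -0.88 (RARRES2) to 0.19 (REPIN1) with azacitidine and from -0.53 (ACTR3C) to 0.04 (REPIN1) with decitabine, with medians of -0.12 and -0.27. The nearest neighbours beyond GIMAP5, TMEM176B and TMEM176A, did not pass the filter. GIMAP6, GIMAP4 and GIMAP8 do not form an unbroken run either, because GIMAP7 lies between GIMAP8 and GIMAP4.

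**Figure D4:**
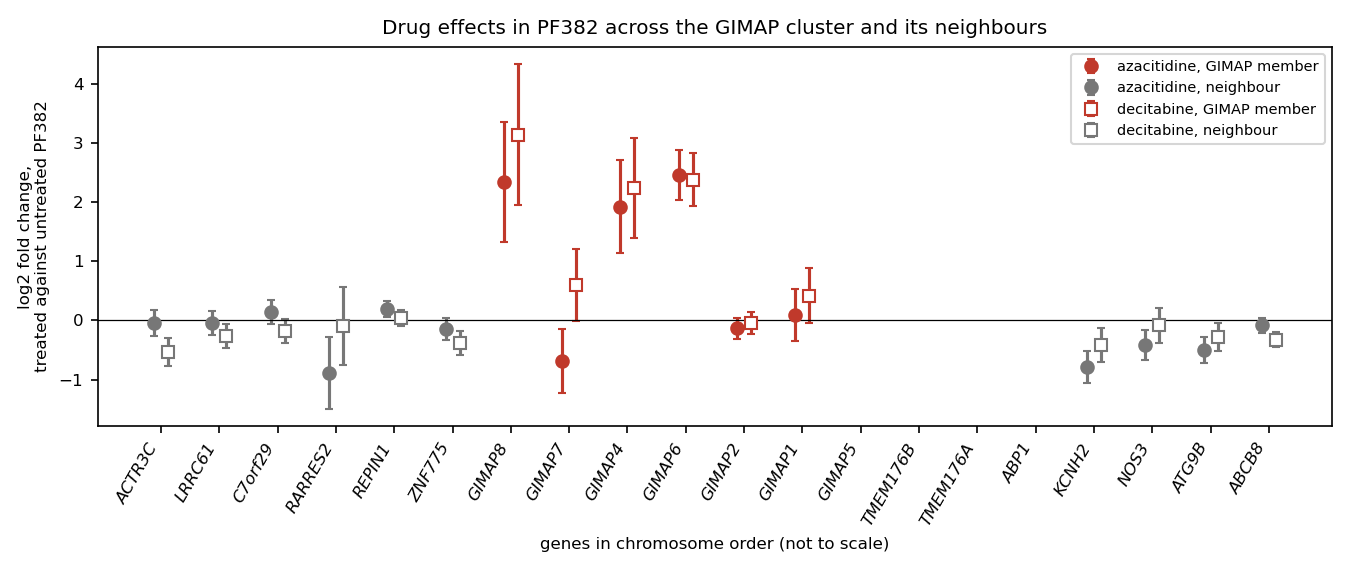
Log2 fold change of treated against untreated PF382 (points, with bars for 1 SE from the edgeR fit) for the GIMAP genes and 13 neighbours in chromosome order, for azacitidine (filled) and decitabine (open). GIMAP8, GIMAP4 and GIMAP6 lay between 1.92 and 3.13 and the 10 neighbours with a value between -0.88 and 0.19; genes at or under 3 counts have no point.

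Lists of genes with related roles were read in the same fits. Of 13 partners of GIMAP proteins and their pathway (BCL2-family and autophagy genes), 13 factors of the T lineage and 14 quiescence and trafficking genes of resting T cells, none was called in PF382 with either drug in the 24-library fit. At an unadjusted p under 0.05 the counts were 1, 2 and 5 with azacitidine and 1, 0 and 8 with decitabine, against 12.1% and 14.1% of all genes, so the partners and factors were near or below the background. The median differences of the 3 lists were 0.03, 0.05 and -0.32 with azacitidine and 0.01, -0.14 and 0.85 with decitabine, against 0.03 and 0.05 over all genes.

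With a slope of their own in PF382, 1 of 13 partners, 2 of 13 factors and 7 of 14 quiescence genes were called with azacitidine, and 1, 4 and 11 with decitabine. Of all genes, 12.1% and 15.4% were called in these slopes, so that the share of the partners was below the background with both drugs. The partner was GABARAPL1, an autophagy gene of the family that GIMAP6 binds, which rose by 0.38 (SE 0.11, adjusted p = 0.0359) and 0.41 (SE 0.12, adjusted p = 0.0149) per doubling. It was at 7.90 CPM untreated and 8.07, 8.07 and 13.7 CPM with azacitidine, and at 4.69 CPM untreated and 7.40, 11.4 and 15.1 CPM with decitabine. The quiescence genes went both ways, 4 up and 3 down with azacitidine and 8 up and 3 down with decitabine. TSC22D3, a glucocorticoid-induced brake on T-cell activation, rose with azacitidine by 0.98 per doubling (SE 0.12, adjusted p = 9.52e-06), while IL7R, the receptor for interleukin 7, fell by 1.27 (SE 0.21, adjusted p = 0.000342). With decitabine KLF2, the transcription factor that holds T cells in quiescence, rose by 1.15 per doubling (SE 0.09, adjusted p = 1.25e-11), TSC22D3 by 1.37 (SE 0.14, adjusted p = 6.13e-08) and BACH2, a repressor of effector genes, by 0.81 (SE 0.11, adjusted p = 1.19e-06). The factors with the smallest adjusted p were ETS1 and RUNX1 with azacitidine and GATA3, RUNX3 and HES1 with decitabine, all rising.

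Markers of other cell types moved in the same PF382 libraries. Summed over each list, epithelial markers were at 12.3 to 46.1 CPM in the 6 treated libraries against 3.65 to 5.37 CPM in the 2 untreated ones, B-cell markers at 18.6 to 28.0 against 10.7 to 11.8 CPM, NK-cell markers at 11.1 to 22.3 against 6.78 to 9.03 CPM, and myeloid markers at 3.85 to 8.93 against 3.19 to 3.75 CPM. Endothelial markers overlapped (7.25 to 16.9 against 7.77 to 9.38 CPM), and T-cell markers did too (2247 to 3092 against 2294 to 2535 CPM). That sum held changes in both directions. By their PF382 slopes 2 of 14 T-cell markers rose and 3 fell with azacitidine, where 12.1% of all genes were called in either direction. With decitabine, where 15.4% were called, 4 of the markers rose and 1 fell. Those with the smallest adjusted p fell with azacitidine, CD4 by 0.60, CD7 by 0.75 and CD5 by 0.25 per doubling (log2, adjusted p of 1.03e-05, 2.85e-05 and 0.00105 by edgeR), and rose with decitabine, CD8A by 0.34, CD247 by 0.23 and CD8B by 0.46 (0.00165, 0.00269 and 0.0254). Of the defining markers MS4A1 and CD22 of B cells, NCR1 of NK cells, TEK of endothelium and KRT19 of epithelium were at 0 in all 8 PF382 libraries. Such differences were not confined to PF382. In treated TLOm1 libraries epithelial markers were at 85.8 to 153.8 against 49.0 to 81.6 CPM untreated, and myeloid markers at 5.7 to 8.2 against 4.3 to 5.2 CPM. In HH myeloid markers were lower, at 3.66 to 4.75 against 4.97 to 5.55 CPM. The other lists overlapped in these lines. The part of these markers in the GIMAP result was not tested.

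The genes most like the 2 members with a mean of at least 5 CPM, GIMAP6 and GIMAP2, were sought among 12958 genes over the 24 libraries. Across all libraries GIMAP6 was closest to KDELC2 (Pearson's r = 0.982) and CPS1 (0.979), and GIMAP2 to ZFP90 (0.994) and MIR1184-1 (0.992), which share its differences between lines. After each library was centred on the mean of its line and set, GIMAP6 was closest to C20orf197 (0.985) and GPR17 (0.981). GPR17 was at 0.773 CPM on average in the 2 untreated and 9.86 CPM in the 6 treated PF382 libraries, and C20orf197 at 2.96 and 13.3 CPM, with 1.95 and 1.64 CPM in TLOm1. GIMAP2 was closest to MED20 (0.762) and CDKN2A (0.721). These are descriptions over libraries that share lines, sets and depth.

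GIMAP5, the member best known for lymphocyte survival, cannot be read from these counts. It had 0 counts in 21 of 24 libraries, and 1, 3 and 2 counts in PF382 at 250 nM and 500 nM azacitidine and 12.5 nM decitabine. The read-through gene GIMAP1-GIMAP5, which joins both genes on the same strand, is listed as a gene of its own and had 0 counts in all 24 libraries. In GENCODE it shares 74.95% of the exon bases of GIMAP5 and 9.75% of those of GIMAP1. Of 107 read-through symbols in the files 73 (68.2%) were at 0 in every library, against 11.4% of all genes. Of genes that share at least 95% of their exon bases with a read-through gene, 8 of 10 had at most 3 counts per library on average, against 29 of 67 with 50% to 95% shared and 18 of 74 with less. Whether reads in shared exons were left out of the counts of GIMAP5 was not tested, and its low values do not show that the gene was silent.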

How the data were processed

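The deposited files held raw read counts per gene, 1 file for each of the 24 libraries and 25559 genes; per the labels the authors used Qiagen RNeasy RNA and the TruSeq Stranded mRNA kit (called poly-A RNA in 1 field and rRNA-depleted in another), and their processing notes name STAR, limma, DESeq2 and GRCh37.p2. Which program and annotation gave the counts is not given in the sources used here. Counts were used as deposited. CPM are counts scaled to a library total of 1000000. Differences were tested with edgeR 4.0.16 (quasi-likelihood F test, TMM, robust, genes kept by filterByExpr with a minimum count of 10; SE from the fold change and F), with limma 3.58.1 and DESeq2 1.42.0 as alternatives in R 4.3.3, and Benjamini-Hochberg adjustment over all genes tested at 0.05. Fits used line as a block (drug effects and slopes), line within set (effects in each line, all 24 libraries) or set (untreated lines). The edgeR fitting was tested on simulated counts. Counting intervals are exact at 95%, the floor of a count of 0 is 3 counts per library, and both cover counting error only. All 7 members are named; of the fixed lists, up to 3 genes with the smallest adjusted p are named (1 is not reported here), and for members with a mean of at least 5 CPM the 2 genes most correlated in log2(CPM + 1), among genes with a mean of at least 1 CPM. The members and lists were chosen with earlier results of these data known. Promoters are from RefSeq (GRCh38.p14), where all 7 members matched.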

Additional observations from a re-analysis of the deposited data

Results flagged for a closer look

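GIMAP6 lay on opposite sides of its untreated level in 2 lines. With azacitidine it was above its untreated library in 3 of 3 treated PF382 libraries (log2 difference 2.46) and below it in 3 of 3 treated TLOm1 libraries (-0.21). With decitabine the same held (2.38 in PF382 and -0.13 in TLOm1). The TLOm1 differences were smaller than their SE of 0.35, and edgeR's test that the 3 line effects are equal did not pass after adjustment (adjusted p = 0.0992 and 0.331). No group held 4 or more libraries of 1 condition, so no library was compared with others of its own group.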

How the results depend on the processing

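The azacitidine call of GIMAP6 in PF382 kept its direction and its side of the threshold in 27 of 28 alternatives; from the libraries of PF382 alone 0 members were called. The decitabine call of GIMAP6 in PF382 held in 17 of 28: 0 members were called by limma voom and from the libraries of PF382 alone, and leaving out 1 library gave 0 to 1. The call was lost without the 250 nM azacitidine library of PF382 or of TLOm1, the 12.5 or 25 nM decitabine library of any line, or the 5 nM decitabine library of TLOm1 (adjusted p 0.0506 to 0.0949). The decitabine slope called 0 members by DESeq2, without HH, without PF382, and, with separate slopes, in HH and in TLOm1, 2 in PF382, and 0 to 1 when 1 library was left out (1 without the 5 nM library of TLOm1, where GIMAP6 passed and GIMAP8 did not, as also without TLOm1). The azacitidine slope called 2 members in PF382 with separate slopes. The difference between lines was called for 1 member by DESeq2 with each drug, and for 0 to 1 when 1 library was left out, the 1 being GIMAP6 (azacitidine: without the untreated or 50 nM HH library of that set or the 5 nM decitabine library of PF382; decitabine: without that last library). Pooled over lines, GIMAP6 rested on PF382: without PF382 its difference was -0.118 with azacitidine and -0.109 with decitabine, and its slope -0.18 and -0.0493. Its pooled azacitidine slope was -0.000283 by DESeq2. Leaving out 1 library moved the pooled GIMAP6 difference between -0.134 and 2.49 (azacitidine) and between -0.1 and 2.39 (decitabine), the lowest without the untreated PF382 library, and its azacitidine slope between -0.0844 and 0.254. Differences near 0 changed sign: GIMAP1 in PF382 (azacitidine, -0.13 to 0.234), and GIMAP2 in TLOm1 (azacitidine, -0.00922 to 0.134), in HH (decitabine, -0.116 to 0.225) and in PF382 (decitabine, -0.0732 to 0.01). TMM scaling moved the untreated GIMAP6 level of PF382 from 5.02 to 4.61 CPM and that of GIMAP1 in TLOm1 from 0.368 to 0.386 CPM, beyond 1 SD, and 8 other levels by less. The causes were not tested. Over all genes the calls depended on the tool: edgeR, DESeq2 and limma voom called 148, 439 and 271 genes in PF382 with azacitidine, 46, 421 and 5 with decitabine, 189, 1108 and 445 over the lines with azacitidine and 0, 466 and 12 with decitabine (edgeR's unadjusted p was under 0.05 for 2492), and 26, 323 and 7, and 1, 97 and 0, for the difference between lines. In TLOm1 with azacitidine they called 178, 946 and 214. Fits of a line alone and separate slopes were chosen after seeing the data. Of the untreated line differences GIMAP4 between PF382 and TLOm1 was lost by DESeq2 (adjusted p = 0.0907). Without the untreated library of a line and set, that line's effect in that set has no value. No paired analysis was possible because the labels number no replicates; the blocks for line and library set are part of the fits. Depth limits GIMAP4, GIMAP7 and GIMAP8, which had at most 117 counts in a library.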
